A study of Mus musculus with 8 samples.

Results

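The genes described here are those of the cytosolic ribosome, taken as the protein-coding genes of the GENCODE mouse annotation whose symbol is Rpl or Rps followed by a number, with an optional a, l or x, plus Rplp0, Rplp1, Rplp2 and Rpsa. Rps6k kinases were left out. The rule gave 80 of the 21853 protein-coding genes with a protein-coding transcript, 49 of the large subunit and 31 of the small subunit. Nuclear factor I (NFI) proteins NFIX, NFIB and NFIA were mapped on chromatin by ChIP-seq, immunoprecipitation of bound DNA followed by sequencing, in granule neuron progenitors dissociated from the mouse cerebellum at postnatal day 7. Each factor had 1 library from mice of a mixed background said to resemble the outbred CD1 strain (Mixed) and 1 from CD1 mice, so n = 2 per factor, and the libraries are named NfiX Mixed, NfiX CD1, NfiB Mixed, NfiB CD1, NfiA Mixed and NfiA CD1. The antibodies were Sigma Aldrich SAB1401263 for NFIX and Abcam ab41851 for NFIA. For NFIB a Novus Biologicals antibody is named with the samples and Sigma HPA003956 in the series design. No genotype or treatment differed between groups, the 2 input samples of the 8 in the series were not analysed here, and whether any libraries had animals or cultures in common is not stated, so differences between them may be technical.

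A ribosome is built from ribosomal RNA and about one copy of each ribosomal protein, and the proteins of the small and large subunits are made in step with each other in growing cells. Their genes are transcribed at a high rate in nearly every cell type, from promoters that mostly lack a TATA box and start transcription within a run of pyrimidines. NFI factors bind as dimers to the palindrome formed by TTGGC and GCCAA, and also, more weakly, to one arm of it alone, called the NFI core below. In the cerebellum NFI factors are known for their part in the maturation of granule neurons.

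The lists held 21443 peaks in NfiX Mixed, 7497 in NfiX CD1, 33283 in NfiB Mixed, 36431 in NfiB CD1, 23541 in NfiA Mixed and 16993 in NfiA CD1. The median summit, the position of the highest signal in a peak, held 21 to 28 fragments. Peaks do not measure expression, so the labelled cell type could not be checked from RNA. All 12 progenitor markers looked up (such as Atoh1, Zic1 and Pax6) had a region of peaks nearest to them, beside 45.6% of all protein-coding genes. A region that held peaks of all 6 libraries was nearest to 5 of them, beside 11.4% of all genes. Pax6 was among the 5, and Atoh1 and Zic1 were not. These counts are no check of the cell type. Folds and q-values below are the authors' own, a fold being the enrichment at the summit over the local background, and a gene without a peak is one at which none was called at the authors' threshold.

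At their promoters, 31 of the 80 ribosomal protein genes had a peak of at least 1 library, with a summit within 1 kb of a transcription start site (TSS). That is 38.8% (95% Wilson interval 28.8 to 49.7), beside 16.7% of all protein-coding genes. Every one of the 31 had an NFIB peak, as did 97% of all genes with a promoter peak. Both subunits took part to a like extent, with 19 of 49 large subunit genes and 12 of 31 small subunit genes. The peaks were weak, and none of the genes had a promoter peak in all 6 libraries. Counts of genes are given as descriptions, with no test, and the intervals cover counting error only.

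The promoters that carried peaks of several libraries are shown first, because they let the peaks be set against the letters of the NFI element. Promoter windows from RefSeq, 250 bases before to 50 after a start on the build GRCm38.p6, matched 60 of the 80 genes, 22 with a promoter peak and 38 without. Coordinates are those of mm10. The next 3 sequences are those in which the summits of 3 libraries fell inside the stretch that can be printed. They are Rps9 (chr7:3703793-3704012, plus strand), Rps12 (chr10:23787256-23787459, minus strand) and Rpl27 (chr11:101442075-101442294, plus strand). Each lies upstream of the first annotated exon of its gene, with at most 20 bases of that exon. Capitals mark NFI cores, TTGGC or GCCAA.

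Rps9: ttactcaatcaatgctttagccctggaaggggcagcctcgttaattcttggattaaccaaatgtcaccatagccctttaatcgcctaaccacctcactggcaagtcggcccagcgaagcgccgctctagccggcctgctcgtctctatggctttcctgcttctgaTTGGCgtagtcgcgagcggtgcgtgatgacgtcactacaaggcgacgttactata
Rps12: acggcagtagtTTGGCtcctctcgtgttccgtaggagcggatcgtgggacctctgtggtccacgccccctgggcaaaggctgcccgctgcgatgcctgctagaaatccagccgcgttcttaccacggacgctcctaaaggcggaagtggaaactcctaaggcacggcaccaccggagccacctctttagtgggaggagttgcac
Rpl27: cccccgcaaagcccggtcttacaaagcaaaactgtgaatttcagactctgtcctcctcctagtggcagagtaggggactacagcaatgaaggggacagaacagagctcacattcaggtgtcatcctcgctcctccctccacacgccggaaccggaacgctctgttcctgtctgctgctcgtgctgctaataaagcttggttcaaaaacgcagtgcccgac

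Counted from 1 at the 5′ end of each printed stretch, the core of Rps9 covers positions 166 to 170, and the summits lie at 150 in NfiX Mixed, 69 in NfiB Mixed and 163 in NfiB CD1. That of NfiB CD1 thus fell beside the core, that of NfiX Mixed lay near it and that of NfiB Mixed farther off. The NfiA Mixed summit of Rps9, 63 bp downstream of the TSS, lies outside the printed stretch. In Rps12 the core covers positions 12 to 16, whereas the summits lie at 76 in NfiB Mixed, 124 in NfiB CD1 and 83 in NfiA Mixed. Rpl27 holds no core in its stretch, yet its summits lie close together, at 189 in NfiB Mixed, 181 in NfiB CD1 and 210 in NfiA Mixed.

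The next 3 sequences, of Rpl23 (chr11:97782418-97782637, minus strand), Rpl24 (chr16:55966075-55966294, plus strand) and Rplp0 (chr5:115559267-115559486, plus strand), each hold 2 NFI cores in the stretch printed, and none of these genes had a promoter peak in any library. Rpl23 and Rpl24 encode large subunit proteins, and Rplp0 encodes the base of the stalk on which elongation factors dock.

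Rpl23: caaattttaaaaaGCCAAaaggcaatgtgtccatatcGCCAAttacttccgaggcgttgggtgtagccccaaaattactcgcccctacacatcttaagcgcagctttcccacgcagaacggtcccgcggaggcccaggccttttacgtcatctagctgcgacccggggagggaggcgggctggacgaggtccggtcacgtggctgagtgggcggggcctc
Rpl24: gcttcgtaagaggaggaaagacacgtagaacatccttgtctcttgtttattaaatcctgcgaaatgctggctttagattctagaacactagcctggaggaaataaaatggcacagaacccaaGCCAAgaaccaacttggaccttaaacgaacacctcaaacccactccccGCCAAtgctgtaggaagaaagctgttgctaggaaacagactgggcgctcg
Rplp0: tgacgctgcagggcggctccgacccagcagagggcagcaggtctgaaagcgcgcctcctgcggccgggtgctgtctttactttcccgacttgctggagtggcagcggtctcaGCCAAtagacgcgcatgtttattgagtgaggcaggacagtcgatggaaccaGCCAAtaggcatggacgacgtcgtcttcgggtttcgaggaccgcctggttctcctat

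Over the 60 genes with a window, an NFI core was present in 30 (50%), beside 52.2% of the 16522 protein-coding genes with a window of the same length. It was present in 13 of the 22 genes with a promoter peak and in 17 of the 38 without. The palindrome with its cores 5 bases apart was in 0 of 60 windows, beside 0.0363% of all, and the single element TTGGCA was in 5 (8.33%), beside 15.3%. An NFI core was thus found in windows with and without a peak, and the split was not tested. Of 42 cores in windows of the ribosomal protein genes, each position counted once, 9 (21.4%) lay within the longer run that also spells CCAAT, beside 29.1% of the cores of all genes. Among the 13 genes with a peak and a core, 5 had a core within 20 bp of a summit of at least 1 library. They are Rpl37 (3 bp from the NfiB CD1 summit), Rps9 (5 bp, NfiB CD1), Rpl13a (12 bp, NfiB CD1), Rps2 (12 bp, NfiB CD1) and Rps27l (18 bp, NfiB Mixed). Over the 13 genes, the smallest distance from any core to any library's summit had a median of 42 bp (3 to 1265 bp). This distance was not worked out for all genes with a promoter peak, so no share stands beside the 5 of 13. Cores were searched only in the 300 bp windows. These held the summit in 34 of the 45 gene and library pairs of genes with a window, so cores near other summits could be missed. The 1265 bp is that of Rpl22, whose core and NfiB Mixed summit lie in windows of different RefSeq starts.

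The 2 NFIB libraries gave the highest counts. In NfiB Mixed 23 of the 80 genes had a promoter peak (28.8%, 95% Wilson interval 20 to 39.5), beside 11.9% of all protein-coding genes. In NfiB CD1 the count was 27 (33.8%, 24.3 to 44.6), beside 13.5%. The count was thus of one size in both NFIB libraries, and 19 genes (23.8%, 15.8 to 34.1) had a peak in both, beside 9.15% of all genes. Of the genes with a peak in either, 61.3% had it in both, beside 56.3% over all genes. NFIB peaks alone, in both libraries and with no NFIX or NFIA peak, were found at 13 genes (16.2%), beside 3.77%.

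For NFIA, 7 genes had a promoter peak in NfiA Mixed (8.75%, 4.3 to 17), beside 5.75% of all genes, and 1 gene in NfiA CD1 (1.25%, 0.221 to 6.75), beside 3.28%. For NFIX, 2 genes had one in NfiX Mixed (2.5%, 0.688 to 8.66), beside 3.79%, and none of the 80 in NfiX CD1, which allows a share of up to 3.75% by a limit of 3 counts and 4.58% by the Wilson interval, beside 0.824%. All 6 libraries had a peak at 0 of the 80 genes, beside 0.691% of all genes. The libraries had the same order by peaks in the list and by ribosomal protein genes with a promoter peak. It ran from NfiB CD1 through NfiB Mixed, NfiA Mixed, NfiX Mixed and NfiA CD1 to NfiX CD1. Whether the length of a list set its count was not tested. The ratio of the ribosomal share to the share of all genes averaged 1.25 ± 1.06 (SD, n = 6 libraries), with 2.42 in NfiB Mixed and 2.5 in NfiB CD1 as the highest, and it was 0.996 without NfiB CD1. Each list was also reduced to its strongest 7497 peaks by −log10 p, the length of the shortest. No ribosomal protein gene then had a promoter peak in any library. Beside this stand 1.13% of all genes in NfiB Mixed, 1.12% in NfiB CD1 and 0.824% to 1.23% over the 6 libraries. By the Wilson interval, 0 of 80 allows a share of up to 4.58%, so these counts of 0 do not set the ribosomal protein genes apart.

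**Figure D1:**
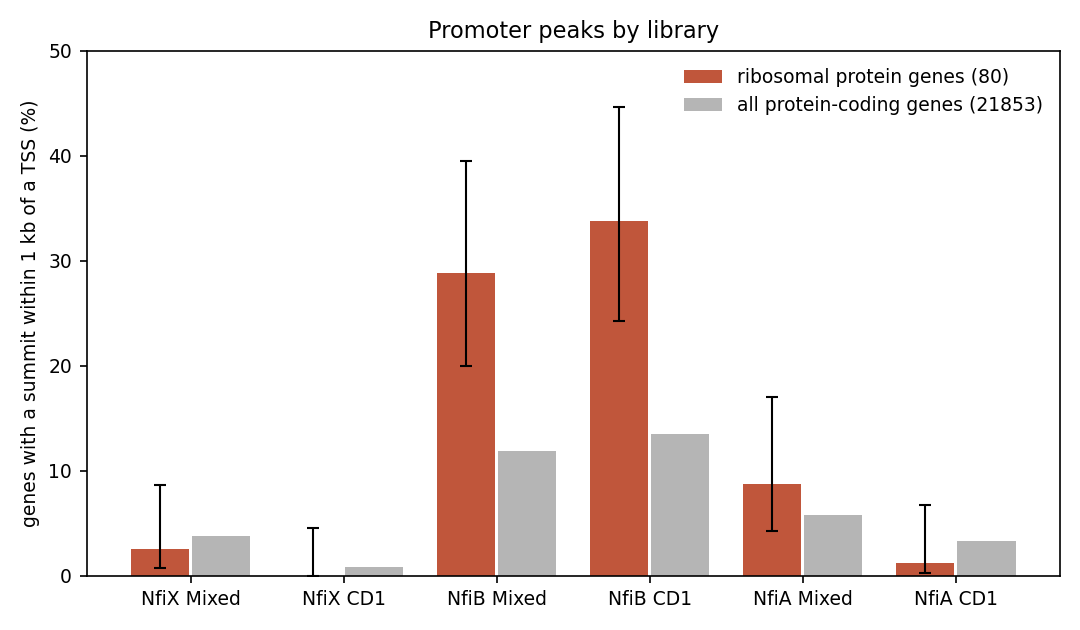
Share of genes with a peak summit within 1 kb of a TSS, in percent, by library. Red bars are the 80 ribosomal protein genes with 95% Wilson intervals, which cover counting error only, and grey bars all 21853 protein-coding genes. The red bars stand at 28.8% and 33.8% in NfiB Mixed and NfiB CD1, against 11.9% and 13.5% for the grey bars, and in the other 4 libraries the intervals span the grey bars.

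Peaks at these promoters ranked low in their lists. Placed among all folds of its list, the median ribosomal promoter peak had a percentile of 26.2 in NfiX Mixed, 12.6 in NfiB Mixed, 4.14 in NfiB CD1, 5.46 in NfiA Mixed and 1.74 in NfiA CD1, where there was 1 peak. Promoter peaks of all genes also ranked low, at 20.3, 9.94, 8.58, 15.9 and 18.7 in the same libraries. The ribosomal medians were thus above those of all promoter peaks in NfiX Mixed and NfiB Mixed and below them in the other 3, and none of these differences was tested. Over the 60 ribosomal gene and library pairs the median percentile was 4.95, and 3 pairs were above a percentile of 50. All 3 were of Rps26. The median fold of the ribosomal peaks was 3.59 in NfiB Mixed and 2.93 in NfiB CD1, against 5.52 and 5.76 over the whole lists.

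Local background was worked out from the fold and p-value of each peak, so it is not a measurement apart from the fold. It was higher under promoter summits than over the whole NFIB lists. In NfiB Mixed the background under a ribosomal promoter summit had a median of 10.9 fragments, against 10.7 under all promoter summits and 4.14 under all summits. In NfiB CD1 the medians were 12.3, 11 and 3.82 fragments. The summits held a median of 42 in NfiB Mixed and 38.5 in NfiB CD1 at ribosomal promoters, against 40 and 41 under all promoter summits and 28 over each list. The part of the background in these calls was not tested. At a −log10 q of 5 or more, 20 genes kept a promoter peak in NfiB Mixed (9.16% of all genes did) and 16 in NfiB CD1 (10.7% of all genes) and 12 genes did in both (6.97% of all genes).

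Rps26 had the most promoter peaks and the highest folds of the group. It encodes a small subunit protein at the channel through which messenger RNA leaves the ribosome, and its human counterpart is mutated in some families with Diamond-Blackfan anaemia, an inherited failure of red cell production. Its folds were 5.16 in NfiX Mixed, 6.38 in NfiB Mixed, 6.98 in NfiB CD1, 5.61 in NfiA Mixed and 3.2 in NfiA CD1, with no peak in NfiX CD1. The CD1 library of NFIB was thus the highest and that of NFIA the lowest. Within their lists the NfiB Mixed, NfiB CD1 and NfiA Mixed peaks had percentiles of 62.2, 64.7 and 52, and that of NfiX Mixed 34. The merged region covers chr10:128626265-128626951, and the summits of NfiX Mixed, NfiB Mixed and NfiB CD1 lie 75 to 80 bp downstream of the TSS, in the annotated 5′ untranslated region. Those of NfiA Mixed and NfiA CD1 lie 201 and 7 bp downstream.

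Rps9, a small subunit protein near the path of the incoming messenger RNA, had promoter peaks in 4 libraries. Its folds were 4.46 in NfiX Mixed, 3.78 in NfiB Mixed, 3.03 in NfiB CD1 and 3.17 in NfiA Mixed. Rps26 and Rps9 were the only ribosomal protein genes with an NFIX promoter peak.

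The 4 genes with promoter peaks in 3 libraries each had them in both NFIB libraries and in NfiA Mixed. Rpl10 encodes a large subunit protein that joins late in assembly and lies close to the catalytic centre, and its folds were 4.41 in NfiB Mixed, 3.64 in NfiB CD1 and 3.5 in NfiA Mixed. Rps12, of the small subunit head, had 3.59, 3.21 and 3.29 in the same libraries. Rpl27, of the large subunit, had 2.94, 2.91 and 2.88, the narrowest spread of the 4. Rpl18, also of the large subunit, had 3.02, 2.63 and 2.51, and its NfiA Mixed summit lies nearer to a TSS of its neighbour Sphk2, which encodes a sphingosine kinase.

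Peaks in exactly 2 libraries were found at 14 genes, a count not made over all genes. At 13 of them the libraries were NfiB Mixed and NfiB CD1 (16.2% of the 80, beside 3.77% of all genes). The exception was Rpl36a, a large subunit protein gene of the X chromosome, with folds of 4.27 in NfiB Mixed and 4.78 in NfiA Mixed. Among the others, Rps29 had folds of 4.47 in NfiB Mixed and 4.28 in NfiB CD1. It is a small subunit gene whose human counterpart is also mutated in Diamond-Blackfan anaemia. In NfiB Mixed and NfiB CD1 its summits lie at -460 and -495 bp from its TSS (negative is upstream).

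Rps18, a protein of the small subunit head, had folds of 3.85 in NfiB Mixed and 3.74 in NfiB CD1, and both summits lie nearer to a TSS of Vps52, which encodes a vesicle tethering protein, than to that of Rps18. Rpl32, of the large subunit, had 4.1 and 2.95 in the same order of libraries, and Rps15a, of the small subunit, had 3.6 and 3.75. Rpl35a, a large subunit gene that is another Diamond-Blackfan gene in humans, had 3.24 and 4.04, and its NfiB CD1 summit lies nearer to a TSS of Iqcg. At these 4 genes neither NFIB library was always the higher.

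The last 6 of the 20 highest ranked genes all had folds under 3 in both NFIB libraries. Rpl37 had 2.94 in NfiB Mixed and 2.65 in NfiB CD1. Rps27l, a close relative of Rps27 known in human cells as a target of p53, had 2.8 in both. Rpl3, which reaches toward the catalytic centre, had 2.79 and 2.35. The remaining 3 of these, Rpl23a at the exit of the protein tunnel, Rpl13a and Rpl22, spanned 2.59 to 2.71 in NfiB Mixed and 2.06 to 2.52 in NfiB CD1.

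Of the 11 genes with a promoter peak in a single library, 3 had it in NfiB Mixed and 8 in NfiB CD1. The same split over all genes was not computed, and NfiB CD1 had the longer list, 36431 peaks against 33283. The genes with a peak in NfiB Mixed alone were Rps7, Rpl11 and Rpl21, with folds of 3.92, 2.82 and 2.25. The NfiB CD1 ones were Rpl30, Rpl38, Rpl9, Rps20, Rpl5, Rps2, Rpl13 and Rps21, with folds of 2.06 to 3.18. Rpl5 (2.4 in NfiB CD1) and Rpl11 (2.82 in NfiB Mixed) encode the proteins that carry 5S ribosomal RNA and, when unassembled, hold back the p53 inhibitor Mdm2. The mouse Rpl38 gene, with 2.95 in NfiB CD1, is known for its part in the translation of Hox messenger RNAs.

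**Figure D2:**
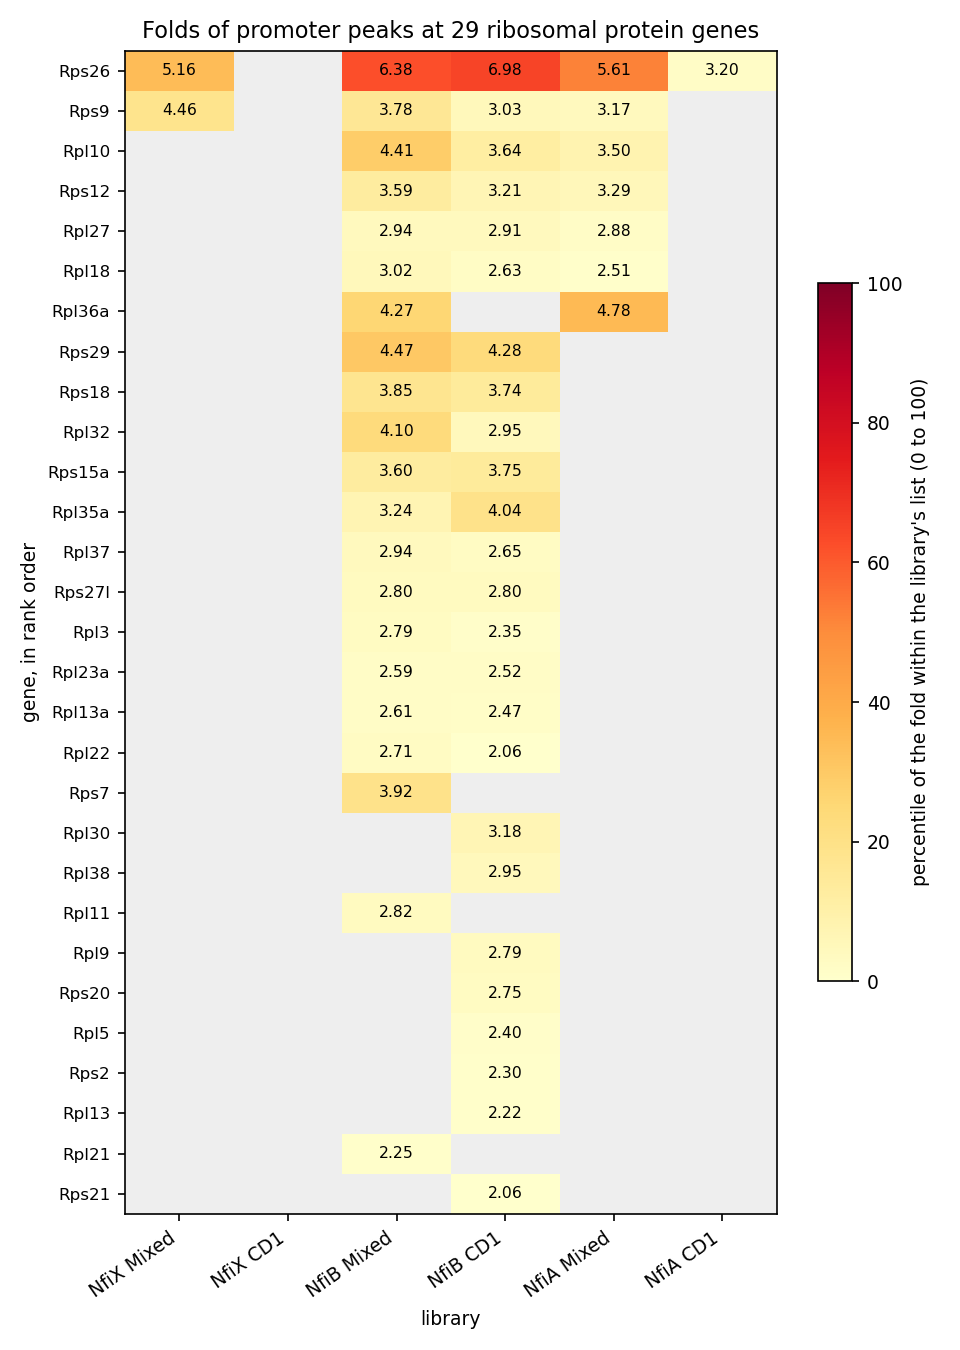
Fold at the summit of the promoter peak of 29 of the 31 ribosomal protein genes that had one (rows, in order of the number of libraries and then of mean percentile) in each library (columns). Numbers are folds, colour is the percentile of the fold within the library's own list, and grey means that no peak was called. Rps26 in the top row stands apart with folds up to 6.98, most values lie in the 2 NFIB columns, and the NfiX CD1 column is empty.

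No promoter peak was called in any library at 49 genes. In the large subunit these were Rpl10a, Rpl10l, Rpl12, Rpl14, Rpl15, Rpl17, Rpl19, Rpl23, Rpl24, Rpl26, Rpl27a, Rpl28, Rpl29, Rpl31, Rpl34, Rpl35, Rpl36, Rpl37a, Rpl39, Rpl39l, Rpl3l, Rpl4, Rpl41, Rpl6, Rpl7, Rpl7a, Rpl8, Rplp0, Rplp1 and Rplp2. Those of the small subunit included Rps10, Rps13, Rps14, Rps15, Rps16, Rps19, Rps23, Rps24, Rps25, Rps27, Rps27a, Rps28, Rps3, Rps4x, Rps6 and Rpsa. All 3 stalk proteins (Rplp0, Rplp1 and Rplp2) are among them, as is Rps6, the protein phosphorylated by S6 kinases. So are Rpl10l, Rpl39l and Rpl3l, copies used in testis or in muscle.

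The window searched had a median of 2.19 kb at the genes with a promoter peak and 2.09 kb at those without, against 2.08 kb over all genes. A TSS of another protein-coding gene lay within 1 kb at 6 of the 31 genes with a peak and at 10 of the 49 without. The share over all 80 was 20%, against 12.9% of all protein-coding genes. At 4 of the 60 gene and library pairs the summit was nearest to such a neighbour.

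Summits lay close to the start of transcription. The median position was -35 bp from the TSS in NfiB Mixed (-778 to 241 bp) and -58.5 bp in NfiB CD1 (-787 to 220 bp). In NfiB Mixed 82.6% of the ribosomal summits were within 250 bp of the TSS, beside 64.2% of all promoter summits, and in NfiB CD1 89.3% were, beside 64.3%. At the 19 genes with both, the summits of the strongest promoter peaks of NfiB Mixed and NfiB CD1 were 2 to 342 bp apart. The median was 38 bp, and 16 pairs were within 100 bp of each other. The 342 bp is that of Rpl10, whose other NfiB CD1 peak, of lower fold, was left out. This gap was not worked out for all genes, so no share stands beside the 16 of 19. In 31 of the 60 gene and library pairs the strongest promoter summit lay outside annotated protein-coding genes, in 15 it lay in an untranslated region and in 14 in an intron.

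**Figure D3:**
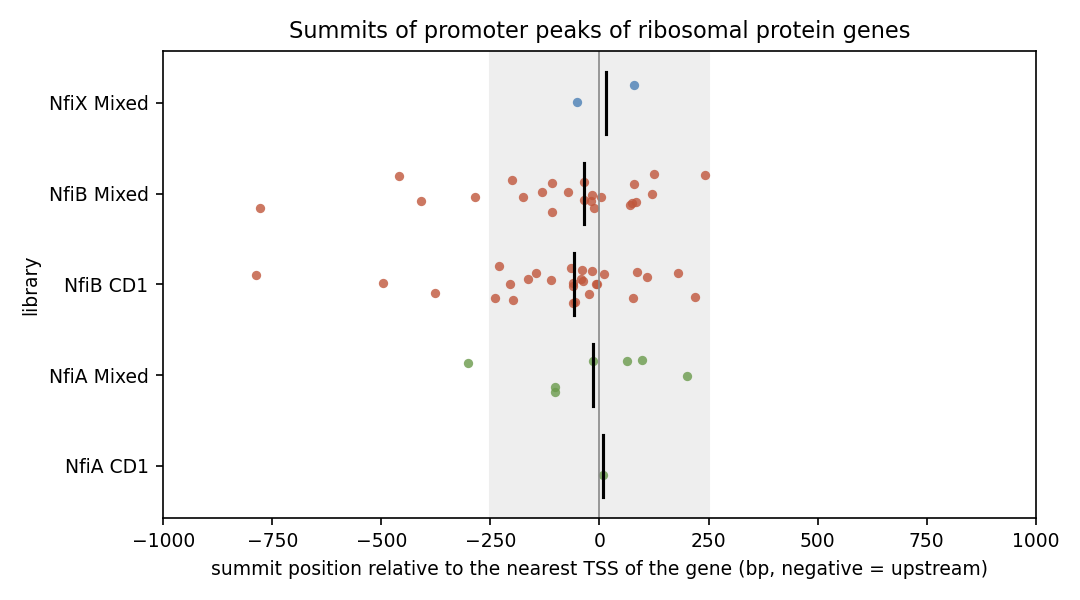
Position of each promoter summit of a ribosomal protein gene relative to the nearest TSS of that gene, in base pairs, by library. Each of the 61 points is a summit (Rpl10 has 2 in NfiB CD1), black lines are medians, and grey shading marks 250 bp on each side. Most points lie in the shading in every library, and the medians of NfiB Mixed and NfiB CD1 are -35 and -58.5 bp.

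Letters of other elements were more frequent in these promoters than in those of all genes. The ETS element CCGGAAG was in 25 of 60 windows (41.7%), beside 13.4% of all windows, and in 9 of the 22 genes with a peak and 16 of the 38 without. The YY1 element AAGATGG was in 9 (15%), beside 7.26%, and in 6 of 22 with a peak and 3 of 38 without. The palindromic CGCG element, a 10-letter sequence searched on both strands, was in 6 (10%), beside 0.769%, and in 0 of 22 with a peak and 6 of 38 without. The first of these was found with and without a peak at like shares, the second more with a peak and the third only without one, and none of these splits was tested. The Sp and Klf element GGGCGG was in 36 windows (60%), beside 51%.

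Elements more frequent in all genes than here were CCAAT, in 19 of 60 windows (31.7%), beside 42.1%, and the E-box CAGCTG, in 4 (6.67%), beside 17.7%. The TATA element TATAAA was in 6 (10%), beside 14.3%, the E-box CACGTG in 6 (10%), beside 9.18%, the CREB element TGACGTCA in 5 (8.33%), beside 2.64%, and the Nrf1 element in 5 (8.33%), beside 7.44%. In the 250 bases before the start alone, the Nrf1 element was in 1.67% of the ribosomal protein genes, beside 6.05%. A C followed by at least 4 pyrimidines began within 5 bases of the RefSeq start in 28 of 60 genes (46.7%), beside 21.8%. The median GC content was 57.8%, beside 57%, and the median number of CpG dinucleotides in a window was 21, beside 14.

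**Figure D4:**
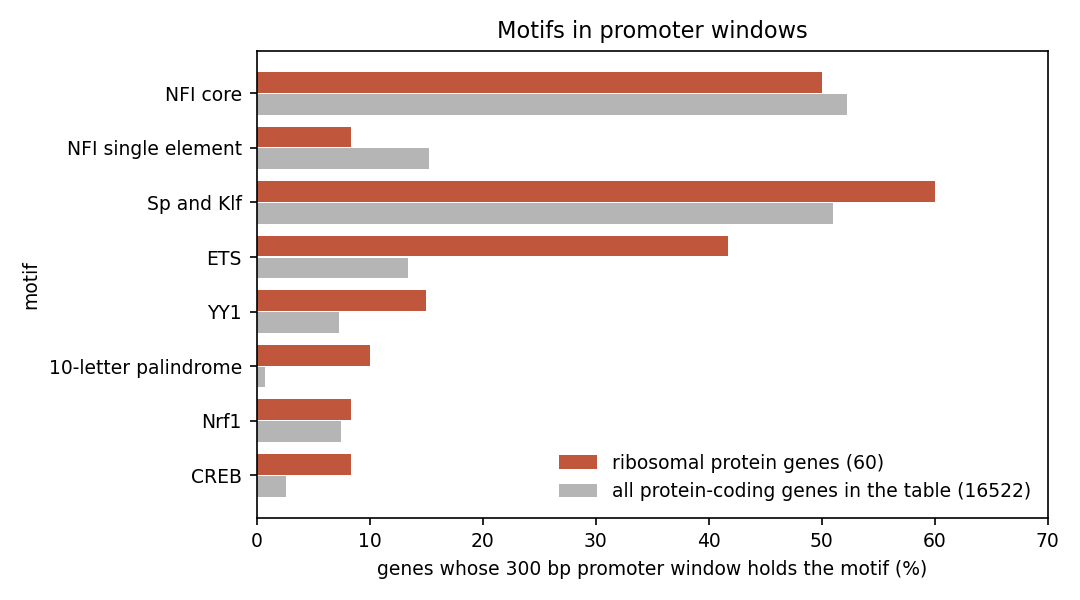
Percent of genes whose 300 bp RefSeq promoter window holds each motif on either strand, for 60 ribosomal protein genes (red) and all 16522 protein-coding genes with a window (grey). The NFI core stands at 50% and 52.2%, and the ETS element at 41.7% and 13.4%. The palindromic CGCG element, drawn as the 10-letter palindrome, stands at 10% and 0.769%.

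A wider view came from giving each merged region to the gene whose protein-coding TSS was nearest, up to 100 kb away. Ribosomal protein genes received 79 of 30922 assigned regions, at 43 of the 80 genes (53.8%), beside 45.6% of all protein-coding genes, and 37 genes received none. Of the 79 regions, 29 had their summit within 1 kb of the TSS and 50 lay farther away. The part within 1 kb was 36.7%, beside 12.6% over all assigned regions. A nearest TSS names a neighbour and not a target.

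The share of regions seen in a single library was similar near and far, 11 of 29 within 1 kb and 21 of 50 beyond. Peaks farther than 1 kb had median percentiles of 34.1 to 43.2 in the 6 libraries, against 47 to 49.6 for such peaks of all genes. All 5 regions that held peaks of all 6 libraries lay beyond 1 kb. Over all assigned regions only 12.6% lay within 1 kb, and the share among all common regions was not computed. Each of these 5 regions was near a different ribosomal protein gene, so that 5 of the 80 genes (6.25%) had a common region, beside 11.4% of all genes. Rps20, a protein of the small subunit head, had by far the strongest of them at chr4:3826978-3827381, outside annotated protein-coding genes and 8.5 kb downstream of its TSS. Its folds were 34.7 in NfiX Mixed, 19.9 in NfiX CD1, 26.3 in NfiB Mixed, 23.9 in NfiB CD1, 28.7 in NfiA Mixed and 24.7 in NfiA CD1, a mean percentile of 99.6. At the promoter of the same gene the single peak, in NfiB CD1, had a fold of 2.75.

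The other 4 common regions were weaker. That of Rpl37a, chr1:72751221-72751809 and 40.2 kb away, had folds of 7.43 in NfiX Mixed, 6.32 in NfiX CD1, 8.49 in NfiB Mixed, 9.46 in NfiB CD1, 8.3 in NfiA Mixed and 8.55 in NfiA CD1. The regions of Rplp1 (chr9:61861924-61862613, 52.4 kb) and Rpl14 (chr9:120646653-120647913, 75.9 kb) spanned folds of 3.81 to 9.29 and 3.61 to 7.26. The region of Rpl27a (chr7:109536419-109537030) lies 17.4 kb away in an intron of St5, with folds of 3.64 to 7.23. In all 4 the lowest fold was below 7 and none came near that of Rps20.

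Regions with peaks of 5 libraries, all but NfiX CD1, came next. The 5 highest ranked were those of Rpl37a at 13.2 kb (folds 5.02 to 11.1), Rpl14 at 24.1 kb (4.89 to 10.3), Rps24 at 87.9 kb (3.47 to 8.78), Rps26 at its promoter and Rpl29 at 24 kb (4.05 to 5.69). Rps24, a small subunit gene, received 10 regions in all, the most of the group, and none at its promoter.

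**Figure D5:**
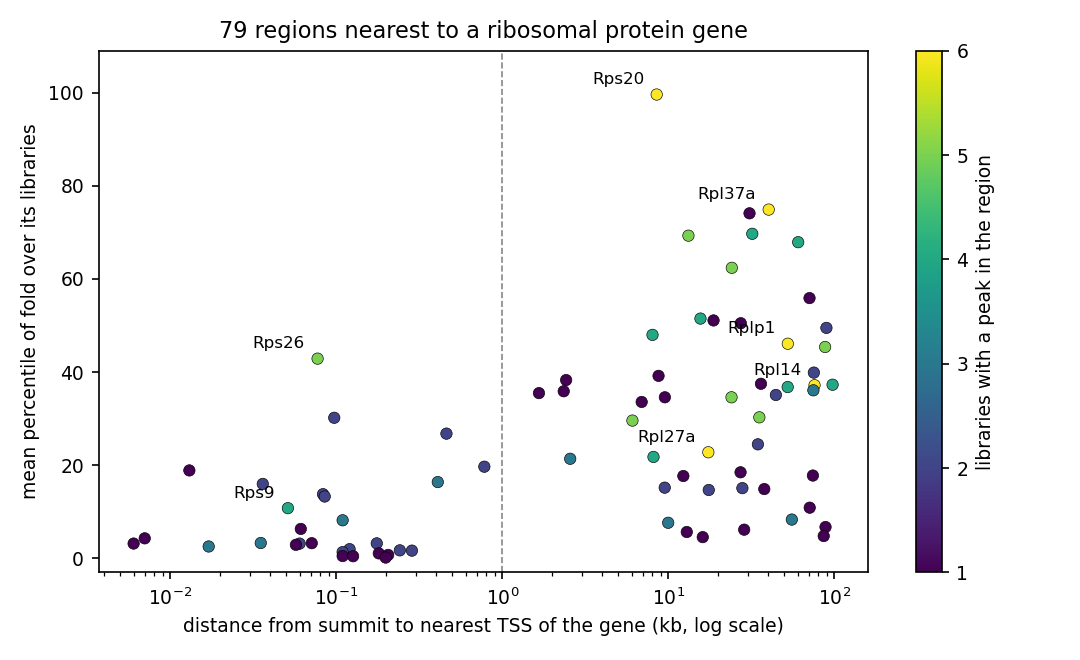
The 79 regions whose nearest TSS is that of a ribosomal protein gene, by distance from summit to TSS (kb, log scale) and mean percentile of fold over the libraries with a peak there. Colour is the number of libraries, from 1 to 6, and the dashed line marks 1 kb. Regions within 1 kb of the TSS lie low, Rps26 being the highest of them at 42.9, and the 5 common regions lie to the right, with Rps20 at a mean percentile of 99.6.

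Beside the cytosolic ribosomal protein genes, lists of other translation and housekeeping genes gave shares with a promoter peak of at least 1 library of 32.7% (16 of 49) for the large and 31% (9 of 29) for the small subunit of the mitochondrial ribosome, 32.7% (18 of 55) for initiation factors and 50% (5 of 10) for elongation and release factors. Ribosome assembly and rRNA synthesis genes gave 24.1% (7 of 29), other mRNAs with a 5′ terminal pyrimidine tract 28.6% (4 of 14) and proteasome subunits 23.1% (9 of 39). All were above the 16.7% of all genes, so in this count a share above it was not limited to cytosolic ribosomal protein genes. For peaks of both NFIB libraries the shares of these lists ran from 10.3% to 30%. Ribosome assembly and proteasome genes had the lowest and elongation and release factors the highest. Beside them stand 23.8% of the cytosolic ribosomal protein genes and 9.15% of all genes. The lists are small, and none of these differences was tested. Of the ribosomal protein genes, only Rps26 had promoter peaks of 5 or 6 libraries. In the other lists Eef2 (6) and Eef1a1 (5), which encode elongation factors, had them, as did Mrpl34 (6), a mitochondrial ribosomal protein gene. So did Eif4a2 (5), which encodes an initiation helicase, and Ubtf (5), which encodes a factor for rRNA transcription. Peaks of all 6 libraries were at 1 of 49 large subunit genes of the mitochondrial ribosome and 1 of 10 elongation and release factors, beside 0.691% of all genes. No initiation factor, ribosome assembly or proteasome gene had them. The share of all genes with peaks of 5 or 6 libraries was not computed.

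Genes just outside the symbol rule added little. Rps3a1, a small subunit protein gene, had promoter peaks in both NFIB libraries. Fau, which encodes a ribosomal protein fused to a relative of ubiquitin, and Rpl22l1, Rpl36al, Rpl7l1, Rps27rt, Rps19bp1 and the protein-coding genes named as Rpl10, Rpl36, Rpl36a, Rpl9 and Rps12 pseudogenes had none. Among 294 annotated ribosomal protein pseudogenes, 1 (Rpl28-ps2) contained a summit, in NfiX Mixed, NfiB Mixed, NfiB CD1 and NfiA Mixed. A summit inside a pseudogene is not the promoter count used above, and no share over other features stands beside it.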

How the data were processed

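The authors deposited 1 peak list per library. The submitters' processing notes name mm10, Bowtie2 2.2.6, SAMtools 1.4.1 and MACS2 2.1.0. How controls were used, how reads were filtered and where the calling threshold lay is not given in the sources used here. Each deposited peak carries a fold (a ratio over local background), and, on the −log10 scale, a p-value and a q-value, all made by the authors' peak caller. The highest q-value per list was 0.0411 to 0.0492.

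Summits were set against TSSs of protein-coding transcripts of GENCODE M21. A promoter peak had its summit within 1 kb. Peaks overlapping by 1 bp were merged over lists into regions, which are common when all 6 libraries have a peak in them. Fragments at summits and the local background were recovered from fold and p under a Poisson model for 100% of peaks, within 0.002 on the −log10 p scale. Motifs were searched on both strands of RefSeq promoter windows. Python 3.11.15, pandas 2.3.3 and scipy 1.17.1 were used, and the counting was checked on simulated peaks. Named are the first 20 genes by number of libraries and then mean percentile of fold, and the first 10 assigned regions, except for a few genes not reported here. The NFI cores near a summit, the printed sequences and the genes with a peak in 1 library were chosen after their values were seen. The genes and lists were chosen with earlier results of these data known. Alternatives were other windows, thresholds, list lengths, symbol rules, merging and leaving out each library.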

Additional observations from a re-analysis of the deposited data

How the results depend on the processing

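No paired analysis was made, because the results are counts and medians that come from no test. Of 74 alternative values for the 6 main results, 64 stayed close, 8 moved and 2 were reversed. Close meant within 1.5 times the count. For the ratio of shares and the median percentile it meant within 1 SD over libraries (1.06 and 9.91), which is wide. A ratio on the other side of 1 was called reversed, whatever its distance. A count of 0 stayed close only if it was 0 again. The median percentile of 4.95 became 12.6 at a −log10 q of 5 or more and 12.1 with a 5 kb window. With lists of equal length, genes with a promoter peak in at least 1 library and in both NFIB libraries fell to 0. The ratio of shares then fell to 0 and assigned regions to 16. This setting leaves no percentile to compute. In it, 0.824% to 1.23% of all genes had a promoter peak by library, and 0.792% in both NFIB libraries. At a −log10 q of 5 or more, 12 genes kept peaks in both NFIB libraries, beside 6.97% of all genes. A 5 kb window gave 1 gene with peaks in all 6 libraries. Assigned regions numbered 42 within 10 kb and 46 with TSSs of all biotypes. Leaving out 1 library each gave 23 to 31 genes with a promoter peak in at least 1 library, 0 to 1 in all remaining libraries, a ratio of 0.996 (without NfiB CD1) to 1.5, 61 to 79 regions and a median percentile of 4.31 to 8.16. The count in both NFIB libraries has no value without either of them. Of 56 values per library or per motif, 14 moved, and the causes of these moves were not tested. Depth is known only from the 21 to 28 fragments at the median summit, and its part in the calls was not tested.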
